A study of Mus musculus with 14 samples.

Results

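The step from 24 h to 72 h of mTOR inhibition (mTORi) was examined in wild-type E14 cells, a mouse embryonic stem (ES) cell line. Its 4 libraries, 2 at each time, were chosen by their labelled source and belong to a series of 14 bulk RNA-seq libraries. Wild-type cells were grown without the inhibitor (0 h) or with Ink128, an inhibitor of the mTOR kinase, for 24 h, 72 h or 144 h. E14 TET1/2 DKO cells, edited cells of the same line that went through a single-cell sort and grew as 1 clone, were taken at 0 h, 24 h and 72 h. Each of the 7 groups held 2 replicates, all cells were grown on gelatin without feeders in medium with serum and LIF, and every library was made from ribosome-depleted total RNA with added spike-in RNA. The comparison asks what reverted and what was added after the first day of the inhibitor.

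mTOR is a kinase that couples nutrients and growth factors to protein, lipid and nucleotide synthesis, and its inhibition also releases lysosome and autophagy genes from control. In mouse ES cells and blastocysts it brings on a slowly dividing, paused state that resembles embryonic diapause, the natural arrest of the blastocyst. ES cultures are mixtures: next to naive cells they can hold cells that lean towards primitive endoderm, towards the formative state that precedes germ layer formation, or towards the 2-cell stage.

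The deposited values are TPM, a level per transcript length with the same total in every library. Each value is thus a share of the RNA of a library, and the read depth is unknown. All 8 ES cell markers checked were present, between 92.0 TPM for Tfcp2l1 and 2769 TPM for Dppa5a in the 4 libraries. Fibroblast and feeder cell markers summed to 23.2, 4.73, 8.91 and 7.47 TPM in the 4 libraries (24 h replicates 1 and 2, then 72 h replicates 1 and 2), with 8 of 12 at or under 1 TPM throughout. In the 6 libraries labelled TET1/2 DKO, Tet2 lay between 15.9 and 22.2 TPM against 96.0 to 143 TPM in the wild-type libraries. Tet1 stayed between 147 and 248 TPM there against 191 to 349 TPM. The study reports a PCR screen of the deletions and western blots for TET1 and TET2 protein, which these RNA values do not measure. The libraries are called by their label.

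Genes averaging 1 TPM or more over all 14 libraries numbered 15878. Of these, 974 (6.13%) were higher and 1031 (6.49%) lower at 72 h than at 24 h at an adjusted p under 0.05 with limma. A log2 change is here the difference of mean log2(TPM + 1), which understates the change of low genes, and a called gene is one past that threshold. Of the called genes 1751 were protein-coding, 765 of them higher and 986 lower. The median called change was 0.76 for genes that rose and -0.65 for genes that fell, and the median of all genes was 0.027. The 24 h and 72 h libraries did not overlap for any of the 2005 called genes, and they did not overlap for 9194 of all genes tested.

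The number of calls moved with the scaling and with each library. The reported fit took no account of the replicate number, and with that number as a block 1539 genes rose and 1571 fell. On the study's own scale, where TPM are multiplied by a spike-in factor, 81 rose and 119 fell. With both the block and the spike-in scale, a pairing of choices made after seeing the data, 575 rose and 614 fell. Leaving out 24 h replicate 1 or 2 left 536 and 217 higher and 559 and 325 lower genes, and leaving out 72 h replicate 1 or 2 left 162 and 475 higher and 225 and 536 lower ones. All 2005 genes had the same direction on the spike-in scale. Since their libraries did not overlap between the times, the block and the fits without a library could not turn a direction.

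The lists were set against the shares of all genes tested, 6.13% higher and 6.49% lower, which also apply where a list count below stands alone. The lowest median among the lists belonged to primitive endoderm, the extraembryonic layer that lines the blastocyst cavity and lays down basement membrane. 0 rose and 12 fell of 18 tested members of the list, against 6.49% of all genes that fell, with a median log2 change of -1.97 against 0.027 for all genes. On the spike-in scale 11 fell, and with the replicate block 17. With 24 h replicate 1, 24 h replicate 2, 72 h replicate 1 and 72 h replicate 2 left out in turn, 9, 8, 7 and 12 fell, and counts below are given in that order. The transcription factor Gata4 stood at 17.7 and 31.6 TPM at 24 h and 1.29 and 5.27 TPM at 72 h. Gata4 fell by 2.702 on the log2 scale (SE 0.66, adjusted p = 0.026). Gata6, which starts the primitive endoderm programme, measured 12.4 and 28.1 TPM at 24 h and 1.33 and 4.86 TPM at 72 h. Gata6 fell by 2.42 (SE 0.65, adjusted p = 0.0362). Sox17, a factor of the same lineage, stood at 12.03 and 12.01 TPM at 24 h and 0.666 and 2.37 TPM at 72 h. Sox17 fell by 2.46 (SE 0.37, adjusted p = 0.00383). As for all called genes, the groups did not overlap for these 3 factors. Replicate 2 was above replicate 1 at both times for Gata4 and Gata6. Since RNA was measured in bulk, fewer cells of a type and less RNA per cell cannot be told apart.

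Basement membrane genes of this lineage were also lower. Lama1, a laminin chain, measured 314 and 219 TPM at 24 h and 34.5 and 54.004 TPM at 72 h. Lama1 fell by 2.58 (SE 0.26, adjusted p = 0.0011). Col4a1, a collagen IV chain, measured 272 and 141 TPM at 24 h and 27.6 and 36.4 TPM at 72 h. Col4a1 fell by 2.59 (SE 0.28, adjusted p = 0.00136); its neighbour Col4a2, on the opposite strand, went from 144 and 86.3 to 13.4 and 20.99 TPM. Sparc, a secreted matrix protein, stood at 437 and 350.5 TPM at 24 h and 113 and 129.5 TPM at 72 h. Sparc fell by 1.69 (SE 0.14, adjusted p = 0.000357). For the matrix genes replicate 1 was the higher library at 24 h, the opposite of Gata4 and Gata6. At 0 h the same genes measured 1.896 and 5.91 TPM (Gata4), 38.9 and 53.4 TPM (Lama1), 46.1 and 43.9 TPM (Col4a1) and 169 and 188 TPM (Sparc). The 72 h values lay near or below these. At 144 h the 4 genes had 1.08 and 1.45, 29.6 and 24.1, 11.3 and 9.25 and 53.5 and 51.8 TPM. The 24 h libraries enter both the first-day change and the step, so the 0 h values stand beside them as values only. Of the other called members, the factors Sox7, Foxa2 and Hnf4a had log2 changes of -1.904, -1.69 and -0.93, and Lamb1, a laminin chain, of -1.41. Among members that did not pass in the fit without the block, Pdgfra, a receptor of this lineage, had 10.5 and 30.3 TPM at 24 h and 1.45 and 4.89 TPM at 72 h (adjusted p = 0.0673). Cubn, an endocytic receptor, had 41.6 and 39.2 TPM at 24 h and 2.52 and 8.57 TPM at 72 h (adjusted p = 0.0754). Rhox5, an X-linked homeobox gene of extraembryonic tissue, differed from the rest: it had 248 and 193 TPM at 0 h, 174 and 184 TPM at 24 h, 50.8 and 46.7 TPM at 72 h and 6.82 and 5.197 TPM at 144 h.

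**Figure D1:**
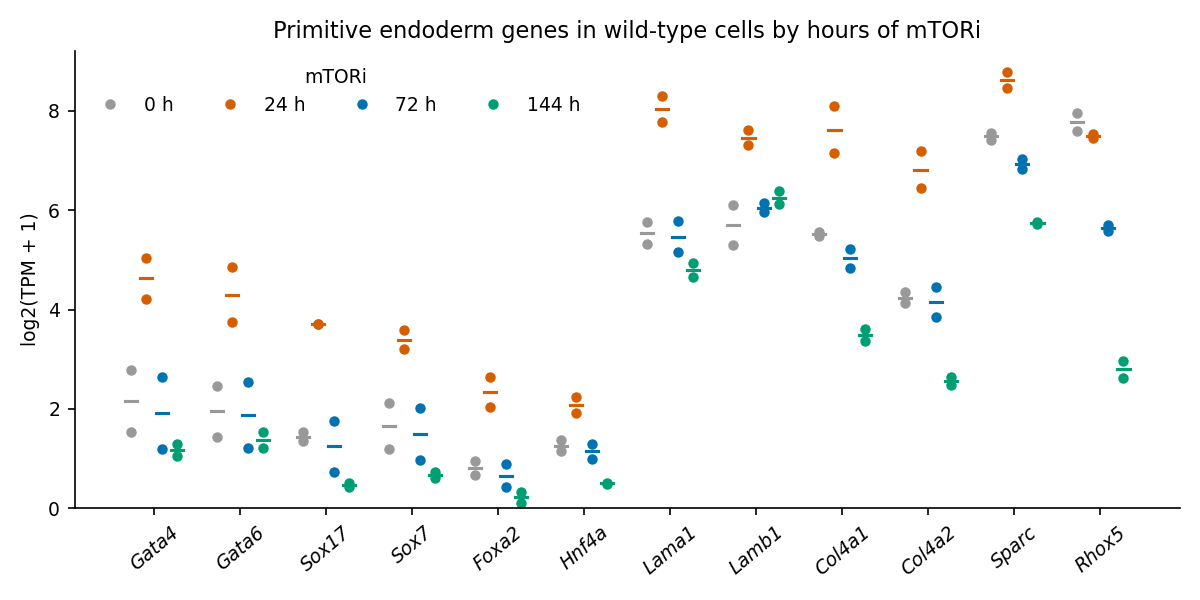
log2(TPM + 1) of the 12 primitive endoderm genes called lower at 72 h, in the 8 wild-type libraries (points, 2 per time) with the mean of each time (bar). For 11 of the 12 the 24 h points are the highest, and Rhox5 is instead highest at 0 h.

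Outside this list, Srgn, a proteoglycan core protein, measured 3.18 and 10.01 TPM at 0 h, 43.01 and 57.95 TPM at 24 h, 3.64 and 10.2 TPM at 72 h and 1.89 and 1.86 TPM at 144 h. Fabp3, which carries fatty acids, measured 59.6 and 44.98 TPM at 0 h, 207 and 300.3 TPM at 24 h, 34.8 and 57.8 TPM at 72 h and 27.8 and 32.7 TPM at 144 h. Both were highest at 24 h. Tinagl1, a matrix protein, fell from 24.6 and 8.42 to 1.75 and 1.05 TPM, Hs3st1, a heparan sulfate sulfotransferase, from 21.2 and 11.9 to 1.23 and 2.02 TPM, and Nostrin, an endocytic adaptor, from 15.6 and 31.1 to 0.575 and 5.29 TPM. Of the 15 largest falls, the remaining ones were Nxf7, Eps8l2, Hkdc1 and Stard8, with log2 changes of -2.85, -2.68, -2.54 and -2.53, besides H19 below.

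0 rose and 2 fell of 9 tested trophectoderm genes. Krt8, a keratin of simple epithelia, went from 55.7 and 16.8 to 5.25 and 6.03 TPM and Tead4, a trophectoderm factor, from 20.4 and 18.7 to 10.8 and 9.59 TPM. The defining factors Cdx2 and Elf5 stayed under 1 TPM. 3 rose and 0 fell of 7 tested neural progenitor genes, namely Sox11 (3.97 and 2.29 to 12.6 and 10.5 TPM), Sox1 (1.89 and 1.301 to 4.27 and 4.43 TPM) and Tubb3 (26.8 and 25.3 to 43.5 and 58.3 TPM). Of 14 such markers 7 were at or under 1 TPM in all 4 libraries. With the replicate block 5 trophectoderm genes fell, and 0, 2, 0 and 0 did with the 4 libraries left out in turn. Of the neural genes 1, Sox11, rose on the spike-in scale. Among 5 tested mesendoderm genes Lefty2 alone was called. Summed trophectoderm markers were 176 and 118 TPM at 24 h and 46.6 and 47.4 TPM at 72 h. The keratins Krt8 and Krt18 gave 55.7 and 65.4 TPM of that sum in 24 h replicate 1, and 16.8 and 15.4 TPM in 24 h replicate 2. Of the 9 tested members 6 had a log2 change below 0 and 3 above 0. The part of cells of these lineages in the other results was not tested.

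Glycolysis is known to depend on mTOR through HIF. 10 rose and 3 fell of 30 tested genes of glycolysis and of the hypoxia factor HIF, with a median of 0.31. Ldha, which turns pyruvate into lactate, measured 991 and 1167 TPM at 0 h, 112 and 104 TPM at 24 h, 300.2 and 204 TPM at 72 h and 721 and 629 TPM at 144 h. Ldha rose by 1.19 (SE 0.20, adjusted p = 0.0061). Slc16a3, a lactate exporter, measured 23.2 and 23.7 TPM at 0 h, 2.804 and 2.72 TPM at 24 h, 22.2 and 16.3 TPM at 72 h and 42.4 and 43.2 TPM at 144 h. Slc16a3 rose by 2.41 (SE 0.16, adjusted p = 0.00017). By 72 h, in TPM, Ldha lay far below its 0 h values and Slc16a3 close to its own. The spike-in scale sets the 72 h values lower against those at 0 h. Pkm, which makes pyruvate, went from 586 and 543 to 1302 and 999 TPM (log2 change 1.01, SE 0.13, adjusted p = 0.00245), and Aldoa and Eno1, upstream enzymes, had log2 changes of 0.65 and 0.58. Pdk1, which restrains entry of pyruvate into mitochondria, had 53.7 and 43.4 TPM at 0 h, 63.2 and 50.1 TPM at 24 h, 109.9 and 91.4 TPM at 72 h and 126 and 126 TPM at 144 h, so that its 72 h values were above those of untreated cells. The 3 members that fell were the glucose carrier Slc2a3 (304 and 392 to 131 and 204 TPM), the hexokinase Hk1 and the prolyl hydroxylase subunit P4ha1. None of these falls passed on the spike-in scale. With the spike-in scale 1 member passed as higher, and 7, 4, 2 and 12 did with the 4 libraries left out in turn. Aldoa has a second gene ID with which it can share reads.

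Cholesterol synthesis is a further known output of mTOR, through the SREBP factors. 11 rose and 1 fell of 24 tested members, with a median of 0.34. Insig1, a feedback sensor of sterols, measured 17.9 and 14.5 TPM at 24 h and 28.5 and 26.04 TPM at 72 h. Insig1 rose by 0.72 (SE 0.11, adjusted p = 0.00488). Synthesis enzymes followed, with Sqle, which makes squalene epoxide, at 33.4 and 27.5 TPM at 24 h and 46.9 and 47.9 TPM at 72 h (log2 change 0.63, SE 0.11, adjusted p = 0.0073). As for all called genes, no library of 24 h overlapped one of 72 h for Insig1 and Sqle. Pmvk, a kinase of the same route, fell from 17.3 and 16.6 to 12.8 and 11.8 TPM. At 0 h Insig1 had 31.8 and 34.1 TPM and Sqle 65.7 and 69.8 TPM, so that Insig1 had come closer to its untreated values than Sqle. In fatty acid synthesis 3 of 14 genes rose, Fasn, Acaca and Elovl6. The synthase Fasn went from 69.4 and 57.4 to 126 and 109 TPM (log2 change 0.88, SE 0.12, adjusted p = 0.00346), against 147 and 133 TPM at 0 h. Acss2, which activates acetate, fell from 9.096 and 6.77 to 2.36 and 4.33 TPM. On the spike-in scale no member of either list passed, 8, 2, 2 and 5 cholesterol and 2, 3, 2 and 2 fatty acid genes rose with the 4 libraries left out in turn, and 5 fatty acid genes rose with the replicate block.

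**Figure D2:**
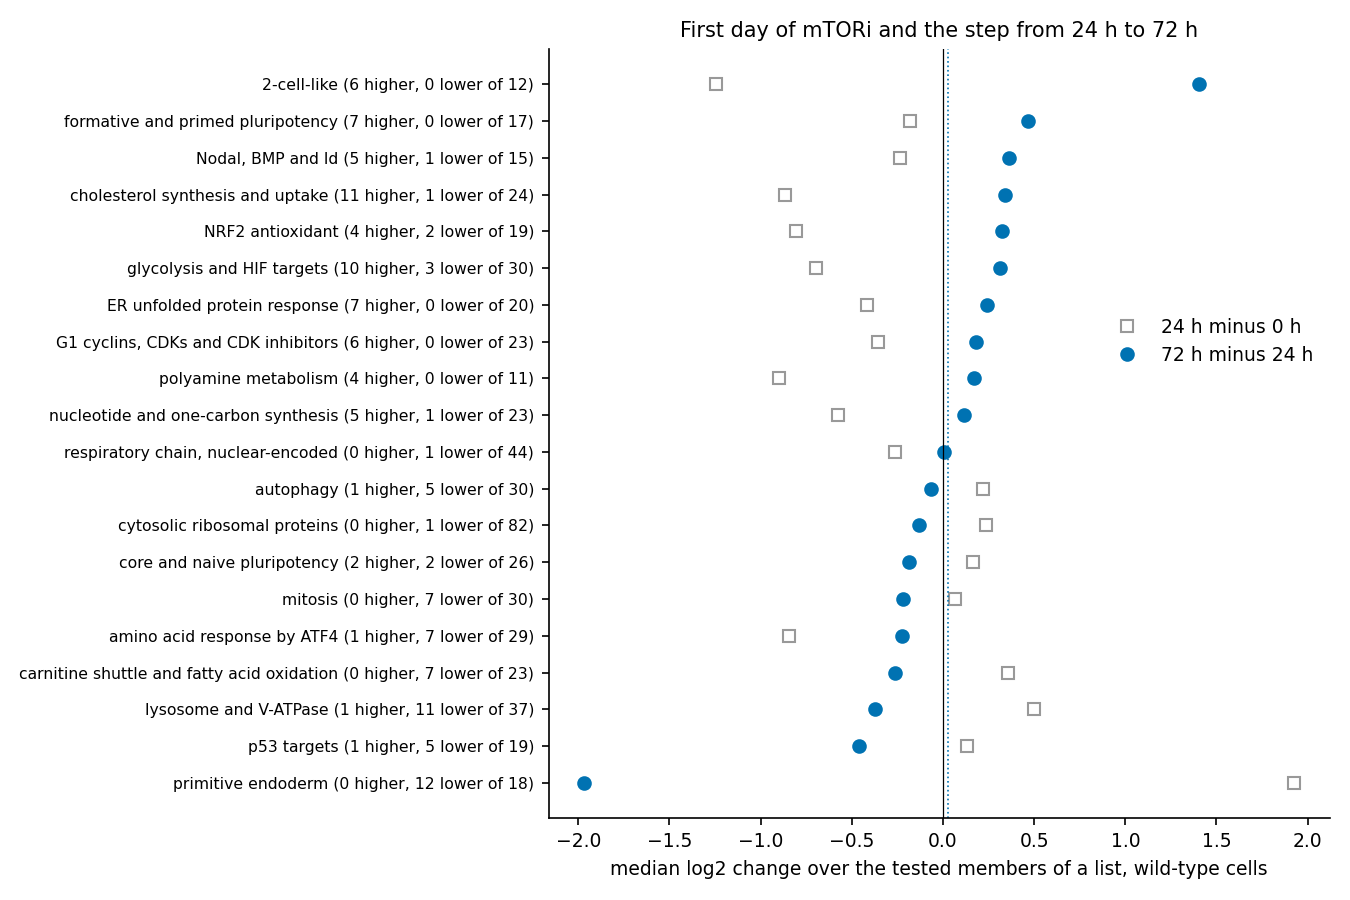
Median log2 change over the tested members of 20 gene lists in wild-type cells, for 72 h against 24 h (filled) and 24 h against 0 h (open), with the numbers called over the step beside each name. The dotted line is the median of all genes over the step (0.027), and primitive endoderm and 2-cell-like genes lie farthest from it. The open and filled points share the 24 h libraries, so their opposite positions are no independent evidence of a reversal.

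Chaperones of the endoplasmic reticulum (ER), targets of the unfolded protein response are known to be induced when folding is strained. 7 rose and 0 fell of 20 tested members. Hspa5 (BiP), the main ER chaperone, measured 414 and 485 TPM at 0 h, 254 and 195 TPM at 24 h, 386 and 358 TPM at 72 h and 337 and 306 TPM at 144 h. Hspa5 rose by 0.73 (SE 0.15, adjusted p = 0.0141). Hsp90b1, a further ER chaperone, measured 325 and 269.7 TPM at 24 h and 509 and 457 TPM at 72 h. Hsp90b1 rose by 0.701 (SE 0.12, adjusted p = 0.00576). Calr, which folds glycoproteins, measured 308 and 274 TPM at 24 h and 469 and 424 TPM at 72 h. Calr rose by 0.62 (SE 0.12, adjusted p = 0.0114). Pdia6 and Pdia4, which form disulfide bonds, had steps of 0.66 and 0.51, Manf, a secreted ER stress factor, of 0.74, and Xbp1, a transcription factor of the response, of 0.45 (adjusted p = 0.0159). On the spike-in scale no member passed, and 7, 0, 0 and 6 rose with the 4 libraries left out in turn. The ER stress response element (ERSE) is the site through which ATF6 and XBP1 are known to act on such promoters. Its letters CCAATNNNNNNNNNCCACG were searched for on both strands in the 250 bases before each annotated start (RefSeq, GRCm38.p6). They stood in 0.113% of 32851 promoters, in 4 of the 6 genes of the list that rose and have a promoter in the table, and in 4 of the 11 that did not pass. The windows of the 4 that rose are shown because they carry the letters these genes share, in capitals, read in the direction of the gene. A capital run that opens with CGTGG is the element on the other strand.

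Hspa5, chr2:34772011-34772057, plus strand: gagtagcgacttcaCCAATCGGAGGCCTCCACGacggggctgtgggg
Hsp90b1, chr10:86705624-86705670, minus strand: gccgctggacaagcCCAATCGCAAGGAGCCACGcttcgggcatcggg
Hsp90b1, chr10:86705519-86705565, minus strand: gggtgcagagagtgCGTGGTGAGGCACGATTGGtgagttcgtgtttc
Pdia6, chr12:17266477-17266523, plus strand: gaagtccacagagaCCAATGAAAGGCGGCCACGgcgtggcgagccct
Calr, chr8:84847061-84847107, minus strand: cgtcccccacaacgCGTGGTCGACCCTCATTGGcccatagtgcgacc

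The site ended 47 bases before the start of Hspa5, 80 before that of Pdia6 and 144 before that of Calr, and Hsp90b1 held it at both 194 and 89 bases. The 4 genes with the element that did not pass were Dnajc3, Canx, Creld2 and Syvn1, with log2 changes of 0.15, 0.084, 0.19 and -0.16. A match of letters is a description and no proof of binding.

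Of 23 genes of nucleotide and one-carbon synthesis 5 rose and 1 fell. Prps2, which makes the ribose donor of nucleotides, went from 12.9 and 10.8 to 23.7 and 21.2 TPM (log2 change 0.87, SE 0.12, adjusted p = 0.00287). Impdh1, an enzyme of guanine nucleotides, fell from 42.7 and 36.5 to 25.5 and 28.03 TPM. Of 11 polyamine genes 4 rose, among them Odc1, the first enzyme of the route, from 334 and 302 to 466 and 449 TPM (log2 change 0.53, SE 0.09, adjusted p = 0.00568), while the related copies Amd1 and Amd2 could share reads. Of 19 antioxidant genes under NRF2 4 rose, among them the peroxidase Prdx1 (282 and 280.4 to 521 and 444 TPM), and 2 fell, Hmox1, a heme-degrading enzyme (40.3 and 60.2 to 24.2 and 22.3 TPM), and Gstm1. No member of these 3 lists passed on the spike-in scale. Rises with the 4 libraries left out in turn numbered 3, 3, 2 and 4 for nucleotide, 2, 1, 1 and 2 for polyamine and 5, 1, 1 and 3 for NRF2 genes, and 9 NRF2 genes rose with the replicate block. 6 rose and 0 fell of 23 tested G1 cyclins, CDKs and CDK inhibitors. Ccnd1 (cyclin D1), which drives entry into the cell cycle, had 58.9 and 45.3 TPM at 0 h, 14.8 and 6.37 TPM at 24 h and 42.6 and 33.5 TPM at 72 h (log2 change 1.84, SE 0.34, adjusted p = 0.00873). Ccne1 (cyclin E1) had 186 and 174 TPM at 0 h, 46.6 and 34.2 TPM at 24 h and 80.5 and 57.6 TPM at 72 h (log2 change 0.75, SE 0.19, adjusted p = 0.0307). At 72 h Ccnd1 lay below its 0 h values and Ccne1 farther below, and Ccnd1 alone of the list passed on the spike-in scale. Leaving out the 4 libraries in turn gave 4, 0, 0 and 3 rises, so that no call was left without 24 h replicate 2 or without 72 h replicate 1.

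**Figure D3:**
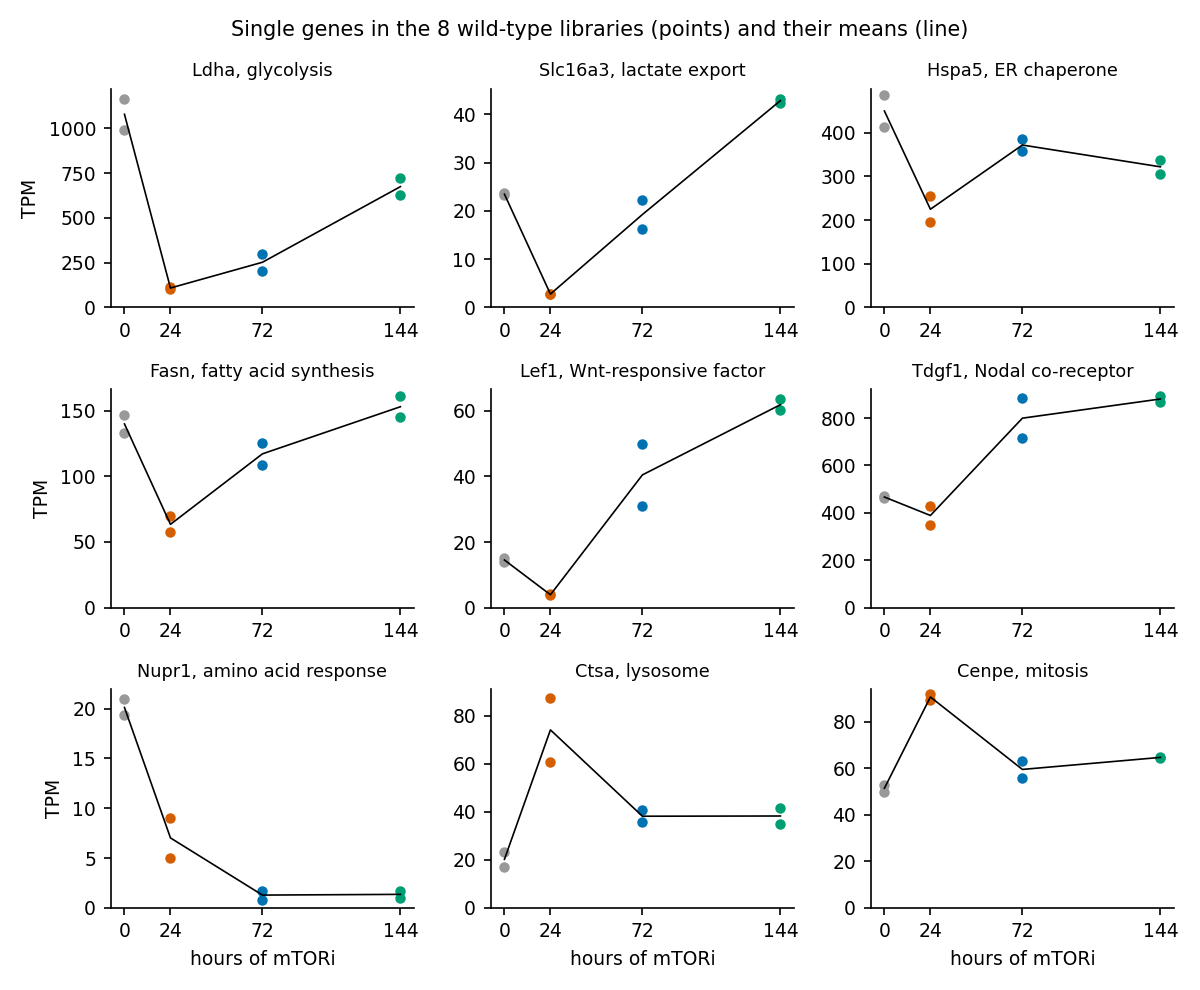
TPM of 9 genes in the 8 wild-type libraries (points) with the mean at each time (line), against hours of mTORi. Ldha, Slc16a3, Hspa5 and Fasn are lowest at 24 h, Ctsa and Cenpe are highest at 24 h, and Nupr1 falls again between 24 h and 72 h after a fall on the first day.

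ATF4 is the transcription factor of the amino acid response, and of its targets 1 rose and 7 fell of 29 tested, with a median of -0.22. Nupr1, a small stress-induced chromatin protein, measured 19.3 and 20.9 TPM at 0 h, 5.02 and 9.01 TPM at 24 h, 1.73 and 0.835 TPM at 72 h and 0.99 and 1.71 TPM at 144 h. Nupr1 fell by 1.796 (SE 0.28, adjusted p = 0.00485). Trib3, a pseudokinase, measured 20.3 and 24.7 TPM at 0 h, 8.72 and 10.7 TPM at 24 h and 4.59 and 3.05 TPM at 72 h. Trib3 fell by 1.16 (SE 0.25, adjusted p = 0.0169). Both genes were lower at 24 h than at 0 h and lower again at 72 h. Ddit3 (CHOP), a stress factor, had 7.85 and 10.04 TPM at 0 h, 8.07 and 10.4 TPM at 24 h and 4.17 and 4.04 TPM at 72 h (log2 change -0.99, SE 0.19, adjusted p = 0.00902), with a second gene ID that can take some of its reads. Chac1, Sesn2, Atf3 and Asns, which makes asparagine, had log2 changes of -0.91, -0.64, -1.503 and -0.62, and the amino acid carrier Slc7a5 rose from 52.9 and 50.7 to 68.4 and 62.2 TPM. The call of Slc7a5 was lost with centring on the median of all genes, in the 8 wild-type libraries alone and on the spike-in scale. Aminoacyl-tRNA synthetases, which this factor also activates, included 4 that fell of 20, Sars (81.7 and 107 to 63.9 and 53.1 TPM), Nars, Wars and Cars, and none that rose. On the spike-in scale 2 members of the ATF4 list passed, Nupr1 and Atf3, and 4, 3, 3 and 3 fell with the 4 libraries left out in turn; of the synthetases 0 fell on that scale and 2, 0, 3 and 1 with the 4 libraries left out in turn.

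The composite element of ATF4 and C/EBP (CARE), TGATGNAA, stood in the 250 bases before the start in 3.45% of all promoters on either strand, in 4 of the 7 genes of the list that fell and in 1 of the 19 that did not pass and have a promoter in the table. The 4 windows are shown because they carry these letters, in capitals, in either orientation.

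Atf3, chr1:191183422-191183457, minus strand: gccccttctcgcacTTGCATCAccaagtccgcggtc
Chac1, chr2:119351035-119351070, plus strand: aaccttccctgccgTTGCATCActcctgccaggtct
Asns, chr6:7693211-7693246, minus strand: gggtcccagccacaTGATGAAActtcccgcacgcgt
Nupr1, chr7:126625559-126625594, minus strand: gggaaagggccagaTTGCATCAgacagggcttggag

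Lysosome genes are known targets of the mTOR-regulated factors TFEB and TFE3. 1 rose and 11 fell of 37 tested members, with a median of -0.37, and with the replicate block 1 rose and 20 fell. With centring on the median of all genes 18 fell. Ctsa, a lysosomal carboxypeptidase, measured 17.1 and 23.3 TPM at 0 h, 60.7 and 87.3 TPM at 24 h, 35.5 and 40.7 TPM at 72 h and 41.7 and 34.7 TPM at 144 h. Ctsa fell by 0.92 (SE 0.22, adjusted p = 0.0246). Lamp1, a lysosomal membrane protein, measured 194 and 220.1 TPM at 0 h, 299.5 and 420.2 TPM at 24 h, 214 and 216 TPM at 72 h and 183 and 196 TPM at 144 h. Lamp1 fell by 0.72 (SE 0.15, adjusted p = 0.0141). Hexa, a hexosaminidase subunit, measured 31.4 and 68.01 TPM at 24 h and 18.2 and 20.6 TPM at 72 h (log2 change -1.22, SE 0.30, adjusted p = 0.0289). Thus, in TPM, Ctsa stayed above its untreated values, and Lamp1 came to lie at its own. The spike-in scale sets the 72 h values lower against those at 0 h. Cd63, a protein of late endosomes, fell from 87.6 and 114 to 30.3 and 38.4 TPM (log2 change -1.52, SE 0.20, adjusted p = 0.00279) and was the 1 member that passed on the spike-in scale. Leaving out the 4 libraries in turn gave 15, 1, 2 and 4 falls. Tfeb itself went from 18.9 and 23.5 to 12.5 and 11.7 TPM (log2 change -0.75, SE 0.15, adjusted p = 0.012), and Tfe3 from 41.02 and 39.8 to 56.4 and 45.7 TPM with a log2 change of 0.32 (adjusted p = 0.207).

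The CLEAR letters TCACGTGA, a palindrome that this factor family binds, stood in 0.785% of all promoters (250 bases before the start), in 3 of the 9 lysosome genes that fell and have a promoter in the table, and in 2 of the 19 that did not pass. The 3 windows are shown with these letters in capitals.

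Ctsa, chr2:164833746-164833772, plus strand: caatgagcaaactgTCACGTGAtgcag
Ctsd, chr7:142387905-142387940, minus strand: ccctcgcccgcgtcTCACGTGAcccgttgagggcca
Atp6v1a, chr16:44139370-44139405, minus strand: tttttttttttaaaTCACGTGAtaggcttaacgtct

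0 rose and 7 fell of 23 tested genes of the carnitine shuttle and of fatty acid oxidation. Cpt1a, which lets fatty acids into mitochondria, measured 17.3 and 13.4 TPM at 0 h, 43.4 and 50.9 TPM at 24 h and 31.9 and 33.1 TPM at 72 h (log2 change -0.52, SE 0.14, adjusted p = 0.0407). Acadl, a dehydrogenase of long acyl chains, measured 12.4 and 15.2 TPM at 0 h, 19.5 and 23.3 TPM at 24 h and 11.8 and 12.6 TPM at 72 h (log2 change -0.76, SE 0.15, adjusted p = 0.0109). 1 rose and 5 fell of 30 tested autophagy genes, beside 6.13% higher and 6.49% lower of all genes tested. Gabarap, an autophagosome protein, fell from 82.2 and 98.3 to 48.3 and 55.3 TPM (log2 change -0.79, SE 0.11, adjusted p = 0.00364), and the cargo receptor Sqstm1 (p62) from 106 and 111 to 72.5 and 64.96 TPM (log2 change -0.66, SE 0.10, adjusted p = 0.00437). Calcoco2, a further cargo receptor, had 203 and 264 TPM at 0 h, 57.9 and 102 TPM at 24 h, 8.002 and 29.9 TPM at 72 h and 6.55 and 7.06 TPM at 144 h, so that its values were lower at each later time up to 72 h. Bnip3, a mitophagy receptor induced by hypoxia, was the gene that rose, from 13.6 and 16.1 to 37.1 and 32.7 TPM. Calcoco2 alone passed in these lists on the spike-in scale. Fatty acid oxidation had 1, 2, 0 and 3 falls with the 4 libraries left out in turn, so that none was left without 72 h replicate 1. Autophagy had 5, 2, 2 and 3, and 8 with the replicate block.

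0 rose and 7 fell of 30 tested genes of mitosis, with a median of -0.22. Cenpe, a kinetochore motor, measured 52.96 and 49.8 TPM at 0 h, 91.8 and 89.5 TPM at 24 h and 63.2 and 55.7 TPM at 72 h (log2 change -0.602, SE 0.08, adjusted p = 0.00312). Ndc80, which anchors microtubules, measured 52.99 and 52.2 TPM at 0 h, 88.9 and 89.8 TPM at 24 h and 58.2 and 57.3 TPM at 72 h (log2 change -0.62, SE 0.10, adjusted p = 0.00475). Aurka, a spindle kinase, had 124 and 119 TPM at 0 h, 95.8 and 93.5 TPM at 24 h and 75.6 and 66.3 TPM at 72 h, so that its 72 h values lay below the untreated ones. Of 36 DNA replication genes Pola1 rose and Rfc4 fell. 1 rose and 5 fell of 19 tested p53 targets. Ccng1 went from 104 and 127 to 52.2 and 65.5 TPM (log2 change -0.96, SE 0.23, adjusted p = 0.0231), Phlda3 from 26.2 and 37.2 to 12.996 and 17.02 TPM. Ei24, an ER protein, rose from 97.1 and 102 to 181 and 185 TPM (log2 change 0.87, SE 0.09, adjusted p = 0.00136). No member of the mitosis, replication and p53 lists passed on the spike-in scale. Mitosis genes had 3, 3, 4 and 3 falls and p53 targets 4, 1, 1 and 2 with the 4 libraries left out in turn, and 12 mitosis genes fell with the replicate block. Of 82 cytosolic ribosomal protein genes Rps20 alone was called, from 769 and 825 to 569.9 and 513 TPM, and 9 of the 82 had a log2 change above 0. Rps20 was not called on the spike-in scale, without 24 h replicate 2 or without 72 h replicate 2.

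Pou5f1 (Oct4) measured 992 and 882 TPM at 24 h and 1027 and 889 TPM at 72 h, a log2 change of 0.031 (adjusted p = 0.899). Sox2 measured 338 and 372 TPM at 24 h and 308 and 308 TPM at 72 h, a log2 change of -0.202 (adjusted p = 0.251). Nanog, a factor that stabilizes the naive state, measured 275 and 301 TPM at 24 h and 154 and 214 TPM at 72 h. Its groups did not overlap, as for 9194 of the 15878 genes tested, and its log2 change of -0.66 missed the threshold (adjusted p = 0.0524). Esrrb, Klf4 and Zfp42 had log2 changes of -0.301, -0.31 and -0.15, with adjusted p of 0.178, 0.33 and 0.279. 2 rose and 2 fell of 26 genes of the core and naive list, counts near the shares of 6.13% higher and 6.49% lower among all genes tested. Tfcp2l1, a naive factor, fell from 153 and 160.2 to 91.97 and 103 TPM (log2 change -0.68, SE 0.12, adjusted p = 0.00708), and Tbx3, also naive, from 195 and 189 to 82.5 and 122 TPM (log2 change -0.93, SE 0.23, adjusted p = 0.0291). Dppa5a rose from 1469 and 1448 to 2452 and 2769 TPM (log2 change 0.84, SE 0.18, adjusted p = 0.017). With spike-in scaling no member of this list passed, with the replicate block 2 rose and 6 fell, and with the 4 libraries left out in turn 1, 1, 1 and 1 rose and 1, 0, 0 and 3 fell.

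7 rose and 0 fell of 17 tested formative and primed genes, with a median of 0.47. Lef1, a factor through which Wnt signals act, had the largest rise of all genes the naming rule covers: 14.03 and 15.01 TPM at 0 h, 3.803 and 4.04 TPM at 24 h, 49.9 and 31.03 TPM at 72 h and 60.2 and 63.6 TPM at 144 h. Lef1 rose by 3.04 (SE 0.21, adjusted p = 0.00017). Otx2, a driver of the formative state, measured 9.78 and 7.79 TPM at 0 h, 14.5 and 16.1 TPM at 24 h, 27.9 and 29.2 TPM at 72 h and 29.2 and 31.5 TPM at 144 h. Otx2 rose by 0.86 (SE 0.22, adjusted p = 0.0306). Lef1 first dropped below its 0 h level, whereas Otx2 was already above it at 24 h. Grhl2, which opens epithelial enhancers, went from 17.9 and 19.2 to 38.7 and 32.8 TPM (log2 change 0.91, SE 0.21, adjusted p = 0.0225). Pou3f1, a POU factor, went from 4.604 and 3.02 to 12.6 and 7.81 TPM (log2 change 1.21, SE 0.33, adjusted p = 0.0374). Lin28b and Cdh2 had steps of 0.73 and 0.56. Lef1 passed on the spike-in scale, the other members did not, and 1, 1, 1 and 3 rose with the 4 libraries left out in turn. Genes of Nodal signalling, which maintains this state, were next examined, and 5 rose and 1 fell of 15 tested Nodal, BMP and Id genes. Tdgf1 (Cripto), the Nodal co-receptor, measured 464 and 469.9 TPM at 0 h, 428 and 349.98 TPM at 24 h and 884 and 715 TPM at 72 h (log2 change 1.04, SE 0.13, adjusted p = 0.00235). Lefty2, a Nodal inhibitor and target, measured 29.1 and 40.6 TPM at 0 h, 8.81 and 8.74 TPM at 24 h, 39.3 and 35.95 TPM at 72 h and 128 and 105 TPM at 144 h (log2 change 1.98, SE 0.15, adjusted p = 0.000279). Skil, a further target of the pathway, and Inhbb had steps of 1.64 and 0.79, and Smad6, an inhibitor of BMP signals, fell from 9.16 and 8.35 to 2.97 and 5.299 TPM. The fall of Smad6 did not pass on the spike-in scale. Of the Nodal, BMP and Id genes 2 rose on the spike-in scale, and 4, 3, 3 and 3 with the 4 libraries left out in turn.

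2 rose and 2 fell of 16 tested genes that write and erase DNA methylation, beside 6.13% higher and 6.49% lower of all genes tested. None of the 16 passed on the spike-in scale. Leaving out the 4 libraries in turn gave 0, 1, 0 and 2 rises and 0, 0, 0 and 0 falls. Dnmt3a, a de novo methyltransferase, measured 70.96 and 61.5 TPM at 0 h, 32.3 and 29.2 TPM at 24 h, 72.9 and 46.8 TPM at 72 h and 70.8 and 45.5 TPM at 144 h. Dnmt3a rose by 0.91 (SE 0.22, adjusted p = 0.0271). Dnmt3b went from 104 and 103 to 165 and 125 TPM and Uhrf1, which guides maintenance methylation, from 185 and 150.4 to 229.8 and 196 TPM, without passing (adjusted p = 0.171 and 0.235). Dnmt1 and Dnmt3l had log2 changes of 0.075 and 0.02, with adjusted p of 0.77 and 0.964. The dioxygenases Tet1, Tet2 and Tet3 had log2 changes of 0.19, 0.024 and 0.082, none of which passed (adjusted p = 0.187, 0.925 and 0.703). Tdg, a glycosylase that completes active demethylation, rose from 25.4 and 29.02 to 39.7 and 37.3 TPM (log2 change 0.49, SE 0.10, adjusted p = 0.0151). The members that fell were Gadd45b, linked to demethylation, and Setdb1, an H3K9 methyltransferase on this list, with log2 changes of -0.91 and -0.32. Mtor, the target of the inhibitor, measured 43.9 and 38.8 TPM at 24 h and 45.4 and 41.9 TPM at 72 h (adjusted p = 0.585).

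Genes of the 2-cell-like state, a rare and short-lived state of ES cultures, were 6 higher and 0 lower of 12 tested. The 6 were Zscan4a to Zscan4f, near-identical copies among which reads can be split, so that single members are uncertain. Zscan4a measured 15.4 and 28.4 TPM at 0 h, 5.97 and 6.12 TPM at 24 h, 31.3 and 25.5 TPM at 72 h and 40.6 and 20.3 TPM at 144 h. Zscan4a rose by 2.05 (SE 0.37, adjusted p = 0.00722). Zscan4f, the most abundant copy, measured 29.9 and 61.7 TPM at 0 h, 11.7 and 16.3 TPM at 24 h and 52.2 and 45.1 TPM at 72 h. Zscan4f rose by 1.74 (SE 0.46, adjusted p = 0.0333). As for all genes called higher, every 72 h library was above every 24 h library for both copies. The 72 h values of Zscan4f lay between its 0 h replicates. The tested list summed to 52.7 and 72.9 TPM at 24 h and to 236 and 196 TPM at 72 h. On the spike-in scale 2 copies passed, and 1, 1, 0 and 2 did with the 4 libraries left out in turn.

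5 rose and 4 fell of 23 tested imprinted genes, and those that rose included all 3 long noncoding RNAs of the Dlk1-Dio3 domain on the list, which are expressed from the maternal allele. Meg3, the first of them, measured 75.7 and 119.6 TPM at 0 h, 112 and 91.5 TPM at 24 h, 315 and 317 TPM at 72 h and 322 and 391 TPM at 144 h. Meg3 rose by 1.63 (SE 0.27, adjusted p = 0.00541). Rian, which hosts small nucleolar RNAs (snoRNAs), measured 309 and 458 TPM at 0 h, 359 and 306 TPM at 24 h and 894 and 894 TPM at 72 h. Rian rose by 1.43 (SE 0.23, adjusted p = 0.00502). Mirg, which hosts miRNAs, measured 40.3 and 54.7 TPM at 0 h, 62.8 and 39.7 TPM at 24 h and 138 and 152 TPM at 72 h. Mirg rose by 1.52 (SE 0.26, adjusted p = 0.00627). The groups lay far apart for these 3 genes, all of which also passed on the spike-in scale. Phlda2, an imprinted growth restrictor, rose from 5.49 and 7.22 to 27.1 and 13.8 TPM, and Nnat from 3.25 and 2.16 to 7.11 and 7.604 TPM. H19, a noncoding RNA of the Igf2 domain, had the largest fall among the genes the naming rule covers, from 75.8 and 192 to 8.09 and 21.3 TPM, 3.09 on the log2 scale (SE 0.84, adjusted p = 0.0379), although its 0 h replicates were 21.6 and 152 TPM. Igf2 itself, a growth factor, went from 11.7 and 7.47 to 1.31 and 0.913 TPM (log2 change -2.301, SE 0.34, adjusted p = 0.00374), and Igf2r and Sgce also fell. With the replicate block 8 imprinted genes rose and 6 fell, on the spike-in scale 3 and 2, and with the 4 libraries left out in turn 4, 2, 3 and 4 rose and 3, 2, 2 and 3 fell.

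The whole stretch from the start of Meg3 to the end of Mirg (mm10, chr12:109541001-109749460) was then read, a choice made after the values were seen. Of 46 miRNA genes tested there 27 rose and none fell, with a median step of 1.20, and of 13 snoRNA genes 11 rose and none fell, with a median of 1.45. With spike-in scaling 8 of the miRNA and 5 of the snoRNA genes rose. Of 283 miRNA genes tested elsewhere 7 rose and 2 fell, with a median of 0.073. These genes span 61 to 124 bases (miRNAs) and 68 to 75 bases (snoRNAs) and lie between the ends of the long transcripts, so their TPM can come from unprocessed host RNA and do not measure mature miRNAs. The summed miRNA genes of the stretch gave 127 and 103 TPM at 24 h and 318 and 365 TPM at 72 h. Mature sequences are printed for the 4 miRNA genes with the largest steps and for a pair of called genes that share a seed, with the seed, bases 2 to 8, in capitals (RefSeq, GRCm38.p6). These are the products such a locus could yield. The pair, printed last, comes from Mir1193 and Mir379. A total of 26 of the 27 called genes had a mature sequence in the table, 48 sequences with 46 seeds in all.

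mmu-miR-299a-5p, chr12:109710644-109710665, plus strand: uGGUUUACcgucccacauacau
mmu-miR-544-3p, chr12:109729371-109729392, plus strand: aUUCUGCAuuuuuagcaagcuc
mmu-miR-494-3p, chr12:109715367-109715388, plus strand: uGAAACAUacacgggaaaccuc
mmu-miR-540-3p, chr12:109586122-109586141, plus strand: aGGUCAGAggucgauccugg
mmu-miR-1193-5p, chr12:109715716-109715735, plus strand: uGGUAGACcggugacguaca
mmu-miR-379-5p, chr12:109709065-109709085, plus strand: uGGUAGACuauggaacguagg

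Their genes had low levels: Mir299a measured 0.728 and 0.255 TPM at 24 h and 4.47 and 5.24 TPM at 72 h. Mir494 measured 3.55 and 2.23 TPM at 24 h and 12.4 and 13.7 TPM at 72 h. Mir1193 measured 4.2996 and 3.64 TPM at 24 h and 15.1 and 12.8 TPM at 72 h. Mir379 measured 0.796 and 0.566 TPM at 24 h and 3.82 and 2.67 TPM at 72 h. Mir379 rose by 1.33 (SE 0.37, adjusted p = 0.0422).

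**Figure D4:**
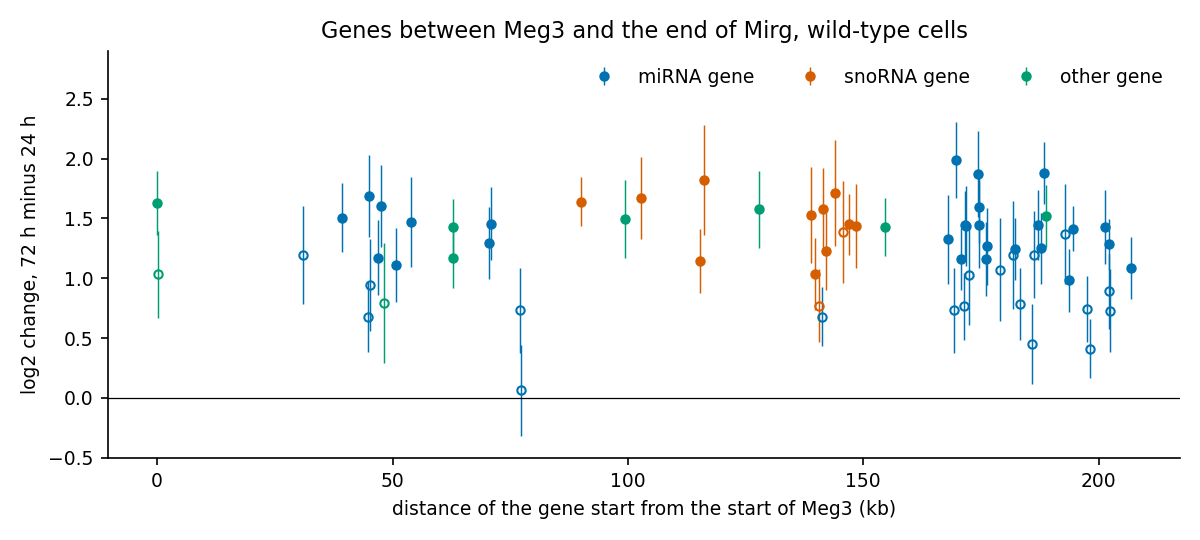
log2 change of 72 h against 24 h (points, with the standard error) for the 68 tested genes between the start of Meg3 and the end of Mirg, by distance of the gene start from that of Meg3. Filled points passed the test, all 68 points are above 0, and 45 are filled.

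Of the remaining lists, basement membrane and matrix adhesion had 2 rises, Col18a1 and Itga5, and 5 falls among 22 tested; the falls were Lama1, Lamb1, Col4a1, Col4a2 and Sparc, also on the primitive endoderm list, and all passed on the spike-in scale, where neither rise did. With the 4 libraries left out in turn the list had 1, 0, 0 and 0 rises and 4, 6, 4 and 6 falls. Rhox homeobox genes, which share reads, had 1 rise, Rhox10, and 3 falls, Rhox5, Rhox6 and Rhox9, among 7, with Rhox5 alone called on the spike-in scale. Wnt targets had 3 rises, Lef1, Ccnd1 and the Wnt inhibitor Notum, and 1 fall, the repressor Tcf7l1, among 13, with Lef1 and Ccnd1 called on the spike-in scale. The BCL2 family had 2 rises, Bok and Bmf, and 2 falls, Hrk and the survival factor Bcl2l1, among 14, with none called on the spike-in scale. The other lists are given as higher and lower of those tested, to be read beside 6.13% higher and 6.49% lower of all genes. In growth control they were 2 and 1 of 29 for the mTOR pathway, with Rptor and Rragb higher and Sesn2 lower, 1 and 1 of 19 for insulin receptors and FOXO targets and 0 and 0 of 13 for the MYC network. In protein synthesis and turnover they were 1 and 2 of 40 for ribosome biogenesis, 0 and 3 of 32 for translation initiation, 0 and 2 of 23 for heat shock chaperones and 2 and 0 of 32 for the proteasome. In mitochondria they were 0 and 1 of 44 for nuclear-encoded and 0 and 0 of 15 for mitochondrially encoded respiratory genes. In chromatin they were 1 and 3 of 26 for polycomb, 2 and 4 of 25 for H3K9 methylation and SIN3A-HDAC and 0 and 3 of 28 for replication-dependent histones, which share reads. In signalling they were 2 and 1 of 17 for LIF and STAT3, 1 and 0 of 19 for FGF and ERK feedback and 2 and 1 of 14 for interferon-stimulated genes. They were 0 and 1 of 8 for MiT factors and folliculin, 1 and 1 of 20 for germline genes that DNA methylation represses and 0 and 0 of 7 for the miR-290 to miR-295 cluster. With spike-in scaling Irf1 and B2m were called among the interferon-stimulated genes, and no member of the lists on growth control, protein synthesis and turnover, mitochondria and chromatin, nor of the FGF, MiT, germline and miR-290 lists. These small counts also moved with the libraries used. Leaving out the 4 libraries in turn gave 0, 0, 0 and 0 rises and 1, 1, 1 and 1 falls for H3K9 methylation and SIN3A-HDAC, and 1, 0, 2 and 1 falls for histones. It gave 0, 0, 0 and 1 rises and 1, 0, 0 and 1 falls for polycomb, and 1, 0, 0 and 0 falls with 0, 0, 0 and 1 rises for translation initiation. It gave 0, 0, 0 and 2 rises for ribosome biogenesis and 1, 0, 0 and 4 for the proteasome, with no falls. The germline and nuclear-encoded respiratory lists had no call in any of these 4 fits. With the replicate block 7 histones fell, 7 proteasome genes rose and 2 fell, and 3 nuclear-encoded respiratory genes rose and 3 fell. The block also gave 3 rises among mitochondrially encoded genes and 2 in the MYC network. It gave 3 falls among FGF and ERK feedback genes and 3 among MiT and folliculin genes.

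Among the remaining large rises, Bcl11a, a zinc finger repressor, went from 0.666 and 0.507 to 11.3 and 6.87 TPM (log2 change 2.63, SE 0.31, adjusted p = 0.00195). Wt1, a developmental zinc finger factor, went from 1.08 and 1.05 to 16.7 and 5.94 TPM (log2 change 2.42, SE 0.39, adjusted p = 0.00502). Pou2f2, a POU factor known from lymphocytes, went from 3.19 and 3.64 to 22.5 and 14.1 TPM, Cpe, a prohormone-processing peptidase, from 8.84 and 3.66 to 39.7 and 21.7 TPM, and Fgf15, a secreted growth factor, from 0.661 and 0.512 to 5.32 and 4.84 TPM. At 72 h both libraries of Bcl11a, Pou2f2 and Cpe were above both 0 h libraries, those of Fgf15 were below them and those of Wt1 lay on either side. Irgm1, an interferon-induced GTPase, rose from 0.823 and 0.583 to 8.402 and 5.02 TPM. Among interferon-stimulated genes the factor Irf1 rose from 14.6 and 11.8 to 38.4 and 30.8 TPM (log2 change 1.33, SE 0.18, adjusted p = 0.00279). B2m, the invariant chain of MHC class I, fell from 11.01 and 15.6 to 3.28 and 4.26 TPM (log2 change -1.57, SE 0.20, adjusted p = 0.00245). Nnt, a mitochondrial transhydrogenase, has a pair of overlapping gene IDs. One of them rose from 1.505 and 2.46 to 20.7 and 19.96 TPM, but their sum went from 17.2 and 13.1 to 23.7 and 23.3 TPM, so the single value is uncertain.

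The genes of the step were then looked up in comparisons that share no library with it. All of them come from the same fit with a common spread per gene, so a gene of small spread is more readily called in each. This can raise the shares below above those of all genes. On the first day of cells labelled TET1/2 DKO, 13.2% of all tested genes were called higher and 15.1% lower at 24 h than at 0 h. Of the 974 genes that rose from 24 h to 72 h in wild-type cells, 329 (33.8%) had been called lower on that first day and 55 (5.65%) higher, which are 13.8% and 2.63% of the genes called there. Of the 1031 genes that fell, 394 (38.2%) had been called higher and 77 (7.47%) lower, or 18.9% and 3.22% of those genes. The cholesterol list was 0 higher and 21 lower of 24 on that first day, and the primitive endoderm list 2 higher and 0 lower of 18.

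The comparison of 144 h with 0 h in wild-type cells also shares no library with the step. In it 17.4% of tested genes were called higher and 12.7% lower in TPM, which are shares of the RNA. The spike-in factors were 0.507 and 0.474 at 144 h against 1 and 1 at 0 h. On that scale, not reported for this comparison, the 144 h values would lie lower, so these calls do not give the direction of absolute levels. Of the genes that rose over the step, 438 (45.0%) were higher at 144 h than at 0 h and 80 (8.21%) lower, or 15.9% and 3.96% of the genes called there. Of those that fell, 347 (33.7%) were lower and 105 (10.2%) higher, or 17.2% and 3.80%. Counts of a few lists follow, and differences between lists were not tested. Of 24 cholesterol genes 1 was higher and 8 lower at 144 h than at 0 h, of 29 ATF4 targets 1 higher and 21 lower, of 37 lysosome genes 10 higher and 4 lower, and of 18 primitive endoderm genes 0 higher and 6 lower.

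The same step was taken in cells labelled TET1/2 DKO, where 823 genes (5.18%) were higher and 285 (1.79%) lower at 72 h than at 24 h and the median of all genes was 0.12. Of the 974 genes that rose in wild-type cells 439 (45.1%) rose there and none fell, and of the 1031 that fell 229 (22.2%) fell there and none rose; these are 53.3% of the rises and 80.4% of the falls in the DKO-labelled cells. Across all 15878 genes, which are not independent, the log2 changes of both steps correlated with r = 0.71 (Spearman's rho 0.72). The test of the difference between the steps called 0 genes with limma, with 945 at an unadjusted p under 0.05 and a smallest adjusted p of 0.19.

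For a few genes, none of which passed that test, the values of both genotypes stand side by side. Col4a1 measured 58.1 and 86.2 TPM at 24 h and 38.8 and 40.8 TPM at 72 h in DKO-labelled cells, a log2 change of -0.81 against -2.59 in wild-type cells (adjusted p of the difference = 0.525). Sparc had 200.1 and 253 and then 166 and 169 TPM (difference, adjusted p = 0.192). Nupr1 was already at 0.47 and 0.0183 TPM at 24 h and had 0.435 and 0.561 TPM at 72 h, a change of 0.29 against -1.796 (difference, adjusted p = 0.51). Grhl2 had 12.6 and 18.5 and 12.7 and 17.01 TPM, a change of -0.05 against 0.91 (difference, adjusted p = 0.773). Zscan4a had 1.52 and 1.13 and then 20.99 and 31.6 TPM, a change of 3.53 against 2.05 (difference, adjusted p = 0.785). The primitive endoderm list had a median of -0.79 and 4 falls, the 2-cell-like list a median of 2.88 and 11 rises, and the ER list 8 rises in DKO-labelled cells; differences between the genotypes over a list were not tested.

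**Figure D5:**
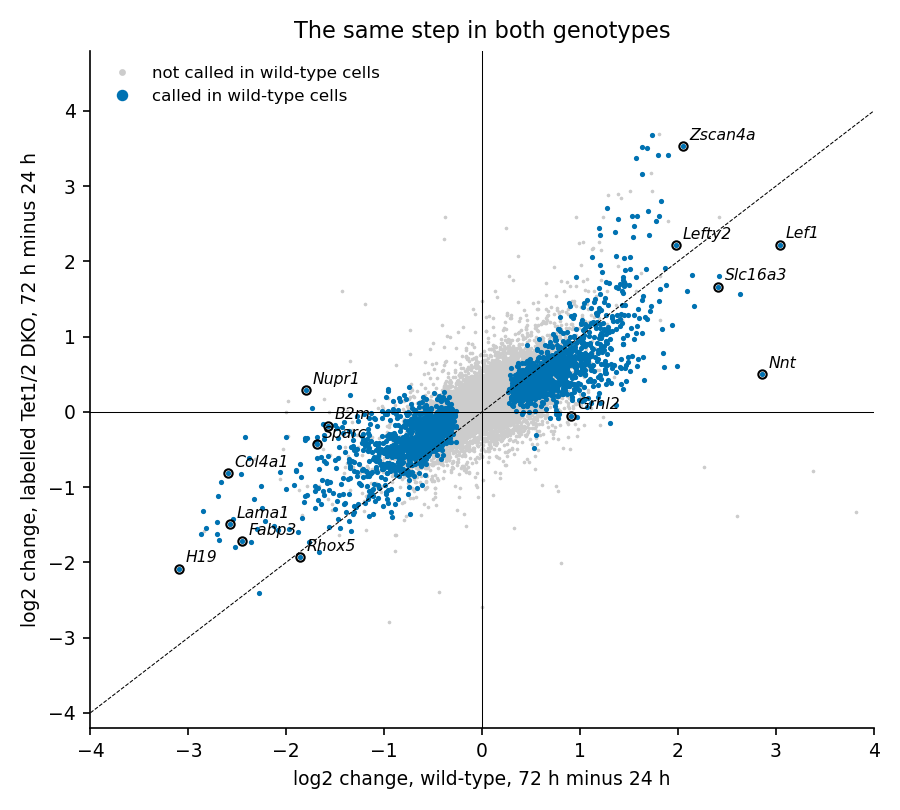
log2 change of 72 h against 24 h in wild-type cells (x) and in cells labelled TET1/2 DKO (y) for tested genes, blue where called in wild-type cells, with named genes ringed and a dashed line of equal change; 5 genes lie beyond the axes. Of the blue genes, 439 were also called higher and 229 also called lower in the DKO-labelled cells.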

How the data were processed

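Per the labels and the study's methods, the authors trimmed reads (cutadapt 2.4), aligned them to mm10 (STAR) and quantified GENCODE genes with StringTie (2.0 in the submitters' processing notes). The deposited TPM were summed per gene ID (54446 IDs, 10 with more than 1 entry). They have the same total in each library and hold no spike-in entries, so depth and counts are unknown and no count test was run. limma 3.58.1 (R 4.3.3, trend on) was fitted to log2(TPM + 1) of all 14 libraries in 7 groups, for 15878 genes that averaged 1 TPM or more, with Benjamini-Hochberg adjustment over all of them, and was tested on simulated data. The reported fit had no replicate block, so its calls and adjusted p ignore any pairing. In the alternative with the block, replicate numbers were taken as pairs within a genotype. The study states that time points of a replicate were processed in parallel. Deviations of equal numbers correlated at 0.29 between 24 h and 72 h, and at 0.068 to 0.46 over all wild-type pairs. The study describes its replicates as biological and its experiments as repeated independently, and with 2 libraries a group the p-values rest on the spread between these samples.

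Named are the 15 largest called rises and falls without overlap between the libraries and with a span of at least 200 bases, leaving out predicted and mitochondrial genes, up to 6 called members per direction of each of 50 gene lists, and 16 fixed genes. The other members and the genes of the Meg3 stretch were chosen after their values were seen. The members and the lists were chosen with earlier results of these data known. Of 222 genes named by the rule 51 overlap a gene on the same strand and 86 one on the opposite strand; strand use in counting is not given in the sources used here. For the spike-in scale 1 factor per library was taken as the median ratio of the study's own normalized table, held here in part, to the deposited TPM, and was used only for that alternative.
Alternatives covered the pseudocount, the filter, centring, the spike-in scale, the replicate block, the libraries in the fit and leaving out each library. Gene types came from GENCODE M21. A few genes that the rule names are not reported here.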

Additional observations from a re-analysis of the deposited data

How the results depend on the processing

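All 2005 called genes had the same direction on the spike-in scale, while the block, the choice of libraries, the filter and the trend could not turn it, since the times did not overlap. Their number did not hold. The spike-in scale gave 81 higher and 119 lower genes, the fit to the 4 libraries alone 311 and 250, and leaving out single libraries 162 to 536 higher and 225 to 559 lower. The replicate block within each genotype gave 1539 and 1571, and with the spike-in scale, a pair of choices made after seeing the data, 575 and 614. Other settings stayed within 1.5 times of the reported counts. The difference between the steps of the genotypes, 0 genes, became 9 genes without the filter on low values and 31 with the block and the spike-in scale. The causes were not tested. Among long nuclear genes no member of the mitochondrially encoded and miR-290 lists was left to test.

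Of 222 named genes 158 lost their call on the spike-in scale, and 82, 135, 143 and 93 without 24 h replicate 1, 24 h replicate 2, 72 h replicate 1 and 72 h replicate 2. The 6 genes that changed sign were not called in the reported fit. Dnmt1 ranged from -0.059 to 0.21 with single libraries left out. Dnmt3l ranged from -0.039 to 0.079 with single libraries left out and had -0.035 on the spike-in scale, with or without the replicate block. Mtor ranged from -0.00796 to 0.17 with single libraries left out. Pou5f1 ranged from -0.073 to 0.13 with single libraries left out and had -0.024 on the spike-in scale, with or without the replicate block. Tet2 ranged from -0.0118 to 0.0596 with single libraries left out and had -0.031 on the spike-in scale, with or without the replicate block. Tet3 ranged from -0.026 to 0.19 with single libraries left out. Depth is unknown, so low genes carry no counting interval, and with 2 replicates a group a call missed is no sign of equality.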
